A study of Mus musculus with 6 samples.

Results

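The proteasome genes were taken from the deposited table by their symbols: Psma, Psmb, Psmc, Psmd, Psme, Psmf or Psmg followed by a digit, leaving out symbols that end in -ps. The rule found 51 of the 26776 genes in the table. Of these, 48 encode proteasome subunits, activators, an inhibitor or assembly chaperones. The other members are the numbered pseudogenes Psmb6-ps2 and Psmb7-ps2, and Psmc3ip, which shares the symbol stem but encodes a cofactor of meiotic recombination and not a subunit. Psmb11, the thymic catalytic subunit, is not listed in the table.

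The libraries were made from LT-HSCs (long-term haematopoietic stem cells) of the bone marrow of Trim47+/eGFP mice, sorted into eGFPlo and eGFPhi cells, with 3 bulk poly-A RNA-seq libraries per group. Both groups carry the same heterozygous reporter allele, so the groups differ in reporter brightness and not in genotype. The sources used here do not give the animals' age, the gate, or whether each replicate is a different animal. A p-value therefore measures only the spread between these libraries, which may be technical. Library totals ran from 11221070 to 26058391 counts, and 3 counts, taken as the floor of detection, corresponded to 0.115 to 0.267 CPM, counts scaled to a common library size. Trim47 stood at 7.28, 8.18 and 8.92 CPM in eGFPlo and at 21.6, 26.2 and 23.3 CPM in eGFPhi, a 2.91-fold higher level in the cells labelled eGFPhi.

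The proteasome degrades proteins that carry ubiquitin chains. Its 20S core is a barrel of stacked alpha and beta rings, and the beta ring holds the catalytic subunits Psmb5, Psmb6 and Psmb7. The 19S regulatory particle, made of a base with ATPases and a lid with a deubiquitinase, binds the ends of the barrel and feeds substrates in. Blood cells also make immune catalytic subunits, Psmb8, Psmb9 and Psmb10, which replace the constitutive ones and shift the peptides that are produced for display on class I molecules. In haematopoietic stem cells protein synthesis is kept low, and protein quality control is a known requirement for their maintenance.

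All results compare eGFPhi with eGFPlo. Levels are CPM scaled with TMM factors. Log2 fold changes (eGFPhi over eGFPlo) and their standard errors (SE) come from edgeR's quasi-likelihood test over 18081 genes, and a gene is said to have risen or fallen when its Benjamini-Hochberg adjusted p is under 0.05. Of the 48 proteasome genes, all of which passed the filter on low counts, 33 fell in eGFPhi (68.8%), 4 rose (8.33%) and 11 did not pass the test. Over all genes tested 31.7% fell and 32.3% rose. The median log2 fold change of the 48 genes was -0.30, beside 0.00 over all genes tested. Most of the differences were small: 8 of the 48 genes fell by more than 1.5-fold, beside 3026 of the 18081 genes tested.

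The same direction was seen in the libraries one by one. In 34 of the 48 genes every eGFPlo library lay above every eGFPhi library, which was so for 34.6% of all genes tested. In 5 of them every eGFPhi library lay above, against 35.2% of all genes tested. The summed level of the 48 genes was 2992 to 3019 CPM in the eGFPlo libraries and 2412 to 2441 CPM in the eGFPhi libraries. In bulk samples, fewer cells of a type and less RNA per cell cannot be told apart.

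Several other gene groups moved with this difference, where 31.7% of all genes tested fell and 32.3% rose. Mitosis genes fell in 15 of 15 cases, with a summed level of 3221 to 3275 CPM in eGFPlo and 1311 to 1319 CPM in eGFPhi. Markers of granulocyte-monocyte progenitors fell in 10 of 10 cases, from 5341 to 5457 CPM in eGFPlo to 301 to 305 CPM in eGFPhi. B cell markers fell in 10 of 10 cases, from 6121 to 6212 CPM to 736 to 760 CPM, and Igll1 had no count in any eGFPhi library. T and NK cell markers summed to 83.2 to 86.3 CPM in eGFPlo and 22.6 to 25.2 CPM in eGFPhi. Of the 7 of 10 that were tested 6 fell and 1 rose, and Cd3e, Cd3d, Cd3g and Trbc2 had no count in any eGFPhi library. The markers listed for LT-HSCs had counts in both groups and rose in 9 of 10 cases. Their summed level was 928 to 964 CPM in eGFPlo and 1965 to 2175 CPM in eGFPhi. Within these sums Kit alone had a mean of 539 CPM in eGFPlo and 783 CPM in eGFPhi. Hoxb5 was near the floor in eGFPlo, with 6, 6 and 7 counts, and had 44, 78 and 116 counts in eGFPhi. The part of these cell types and of cell division in the proteasome result was not tested.

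**Figure D1:**
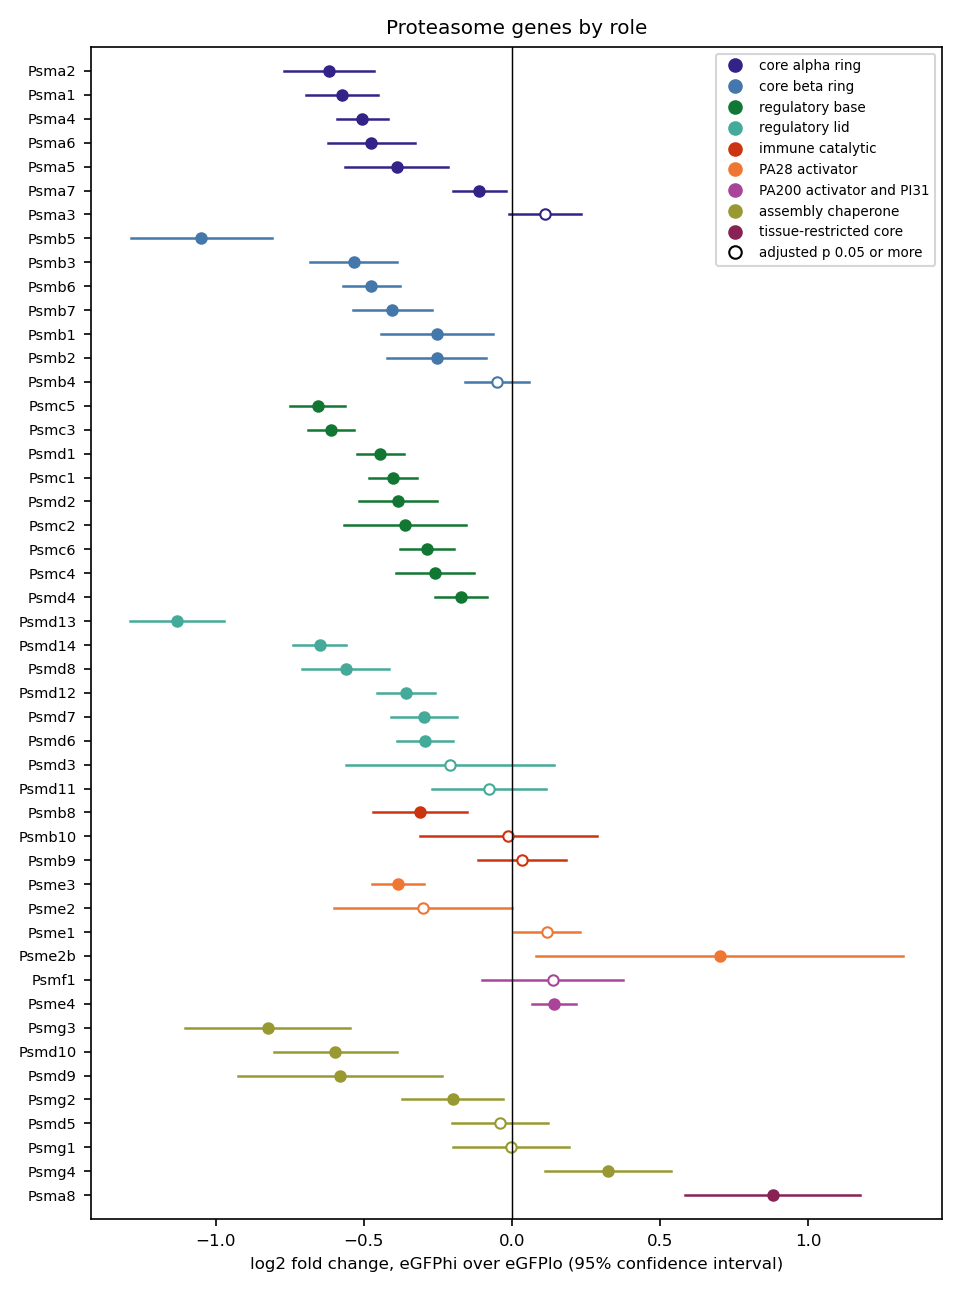
Log2 fold change (horizontal axis, eGFPhi over eGFPlo) of each of the 48 proteasome genes, ordered by role, with bars for the 95% confidence interval and hollow points for genes that did not pass the test. Genes of the core rings and of the regulatory particle lie left of 0 in 30 of 31 cases, whereas immune subunits, activators and chaperones lie on both sides.

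The constitutive 26S proteasome, the 14 genes of the core rings and the 17 of the regulatory particle, carried most of the decrease. Of these 31 genes, 27 fell and 4 did not pass. Their median log2 fold change was -0.39. Their summed level was 2301 ± 14.6 CPM (SD, n = 3) in eGFPlo and 1771 ± 1.99 CPM in eGFPhi, which is 1.30-fold lower. The remaining 17 genes were 6 lower (35.3%), 4 higher (23.5%) and 7 that did not pass, with a median of -0.01. For all genes tested these shares were 31.7% and 32.3%.

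In the alpha ring, which forms the gated entrance of the barrel, 6 of 7 genes fell, beside 31.7% of all genes tested. The median log2 fold change of the ring was -0.47. Psma2 stood at 56.8, 57.9 and 61.7 CPM in eGFPlo and at 37.1, 36.5 and 41.5 CPM in eGFPhi, so the groups did not overlap. Its log2 fold change was -0.62 (SE 0.06, edgeR adjusted p = 1.15e-04), 1.53-fold lower. Psma1 was at 53.6, 56.8 and 57.2 CPM against 35.8, 37.8 and 38.9 CPM, 1.49-fold lower (log2 fold change -0.57, SE 0.05, edgeR adjusted p = 5.49e-05). Psma4, Psma5, Psma6 and Psma7 fell too, with log2 fold changes of -0.50, -0.39, -0.47 and -0.11. The call of Psma7 (edgeR adjusted p = 0.0353) was lost under DESeq2 (adjusted p = 0.136) and without any 1 library except eGFPlo replicate 2 (0.0678 to 0.111). Psma3 was the exception, at 63.3, 60.0 and 67.8 CPM in eGFPlo and 69.1, 70.2 and 67.3 CPM in eGFPhi, where the groups overlapped. Its log2 fold change of 0.11 had a 95% interval of -0.01 to 0.23 (edgeR adjusted p = 0.0973). It passed as higher with upper-quartile factors (adjusted p = 0.0493) and without eGFPlo replicate 3 (0.0295).

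In the beta ring 6 of 7 genes fell as well, beside 31.7% of all genes tested, and the median of the ring was -0.40. Psmb5, the chymotrypsin-like catalytic subunit and the main target of proteasome inhibitors used against myeloma, had the largest decrease of the ring. It stood at 15.3, 16.8 and 17.1 CPM in eGFPlo and at 8.90, 7.72 and 7.40 CPM in eGFPhi, 2.07-fold lower (log2 fold change -1.05, SE 0.10, edgeR adjusted p = 8.21e-05). Every eGFPhi library was below every eGFPlo library by a wide margin. Psmb6, the caspase-like subunit, stood at 72.8, 72.5 and 71.7 CPM against 51.1, 50.9 and 54.1 CPM, 1.39-fold lower (log2 fold change -0.47, edgeR adjusted p = 4.41e-05). Psmb7, the trypsin-like subunit, stood at 49.0, 52.3 and 53.9 CPM against 37.4, 39.0 and 41.0 CPM, 1.32-fold lower (log2 fold change -0.40, edgeR adjusted p = 5.47e-04). All 3 constitutive catalytic genes thus fell without overlap between the groups. Every eGFPlo library lay above every eGFPhi library in 34.6% of all genes tested.

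Psmb3, a structural beta subunit with no catalytic site, stood at 23.7, 23.1 and 23.4 CPM in eGFPlo and 16.4, 15.9 and 16.2 CPM in eGFPhi. It was 1.45-fold lower (log2 fold change -0.53, SE 0.06, edgeR adjusted p = 2.14e-04). The structural subunits Psmb1 and Psmb2 each had a log2 fold change of -0.25, with edgeR adjusted p = 0.0263 for Psmb1 and 0.0159 for Psmb2. Both calls depended on single libraries: without eGFPhi replicate 3 the adjusted p was 0.0866 for Psmb1 and 0.0537 for Psmb2, and for Psmb1 it was also 0.0835 without eGFPlo replicate 2 and 0.0817 without eGFPhi replicate 1. Psmb2 also lost its call under DESeq2 (adjusted p = 0.0630). Psmb4 had a log2 fold change of -0.05 with a 95% interval of -0.16 to 0.06 (edgeR adjusted p = 0.369).

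**Figure D2:**
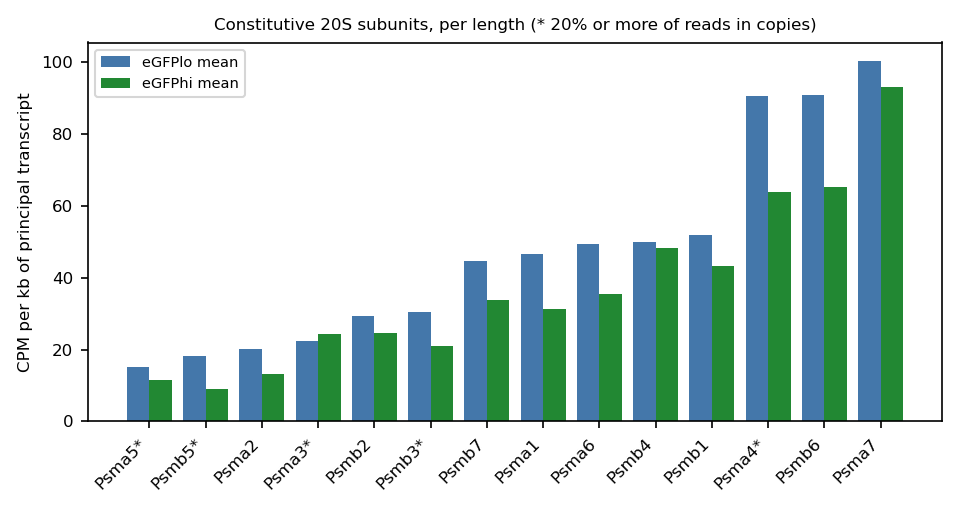
Bars give the mean level over 3 libraries of each constitutive core gene, as CPM per kilobase of its principal transcript, with eGFPlo in blue and eGFPhi in green and genes ordered by their eGFPlo level. An asterisk marks genes with at least 20% of their summed reads on near-identical copies, and the eGFPhi bar is the lower of the pair for every gene except Psma3.

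Levels of different genes were compared per length, as CPM per kilobase of the principal transcript. Although the core contains its alpha and beta subunits in equal number, the transcripts did not stand at equal levels. In eGFPlo the level per length ran from 15.2 for Psma5 to 100.3 for Psma7, and in eGFPhi from 8.91 for Psmb5 to 92.9 for Psma7. Psmb5 stood at 18.3 in eGFPlo, between Psma5 and Psma2 (20.2). The principal transcripts of Psma2 (2911 bp) and Psma3 (2846 bp) are longer than those of the other core genes (766 to 1758 bp). Which transcript of a gene the reads came from was not tested. If it was a shorter one, the level per length is understated, and the order of the genes carries that limit. Psma5 and Psmb5 both share sequence with transcribed copies elsewhere in the genome, which lowers the confidence in their levels, as described further on.

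The base of the regulatory particle contains the ATPase ring (Psmc1 to Psmc6), which unfolds substrates, with the scaffold subunits Psmd1 and Psmd2 and the ubiquitin receptor Psmd4. All 9 genes fell without overlap between the groups. Of all genes tested 31.7% fell, and in 34.6% every eGFPlo library lay above every eGFPhi library. The median of the base was -0.38, with a range from -0.66 for Psmc5 to -0.17 for Psmd4. Psmc5 stood at 68.2, 70.9 and 69.9 CPM in eGFPlo and 44.9, 43.4 and 44.6 CPM in eGFPhi, 1.58-fold lower (SE 0.04, edgeR adjusted p = 7.21e-06). Psmc3 stood at 144, 140 and 137 CPM against 91.1, 90.2 and 93.9 CPM, 1.53-fold lower (log2 fold change -0.61, SE 0.03, edgeR adjusted p = 4.27e-06). For both ATPases the drop was many times the spread between libraries of a group.

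In the lid, 6 of 8 genes fell, beside 31.7% of all genes tested, and the median of the lid was -0.33. Psmd13, a structural lid subunit, had the largest decrease of all 48 genes. It stood at 51.6, 47.9 and 45.8 CPM in eGFPlo and at 20.9, 23.4 and 21.7 CPM in eGFPhi, 2.19-fold lower (log2 fold change -1.13, SE 0.07, edgeR adjusted p = 6.64e-06). Psmd14, the deubiquitinase that removes ubiquitin chains as a substrate enters, stood at 70.2, 71.9 and 70.4 CPM against 45.8, 44.6 and 45.3 CPM. It was 1.57-fold lower (log2 fold change -0.65, SE 0.04, edgeR adjusted p = 5.91e-06), and both groups were tight. The values of Psmd13 carry a limit from an overlapping gene, given further on. Psmd3 and Psmd11 did not pass, at -0.21 (95% interval -0.56 to 0.14, edgeR adjusted p = 0.257) and -0.08 (-0.27 to 0.11, edgeR adjusted p = 0.439). Psmd3 was the most variable of the lid genes, at 80.4, 66.7 and 57.4 CPM in eGFPlo and 64.1, 64.6 and 47.9 CPM in eGFPhi.

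The immune catalytic subunits did not share one direction. Psmb8, the immune counterpart of Psmb5, stood at 123, 132 and 126 CPM in eGFPlo and 113, 102 and 93.2 CPM in eGFPhi, 1.24-fold lower (log2 fold change -0.31, SE 0.07, edgeR adjusted p = 0.00515). Psmb9, the counterpart of Psmb6, stood at 20.6, 20.5 and 19.5 CPM against 20.9, 20.8 and 20.3 CPM. These levels overlapped, and the log2 fold change of 0.03 had a 95% interval of -0.11 to 0.18 (edgeR adjusted p = 0.660). Psmb10, the counterpart of Psmb7, stood at 25.4, 20.4 and 18.4 CPM against 18.8, 21.8 and 22.5 CPM, with a log2 fold change of -0.01 and a wider interval of -0.31 to 0.29 (edgeR adjusted p = 0.945). The eGFPlo libraries of Psmb10 were more scattered than those of Psmb9. Psmb8 and Psmb9 lie near each other on chromosome 17 (GRCm38, 34197721 to 34201454 on the plus strand and 34181987 to 34187764 on the minus strand), in the class II region of the major histocompatibility complex, and Psmb10 lies on chromosome 8 (105935735 to 105938444).

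**Figure D3:**
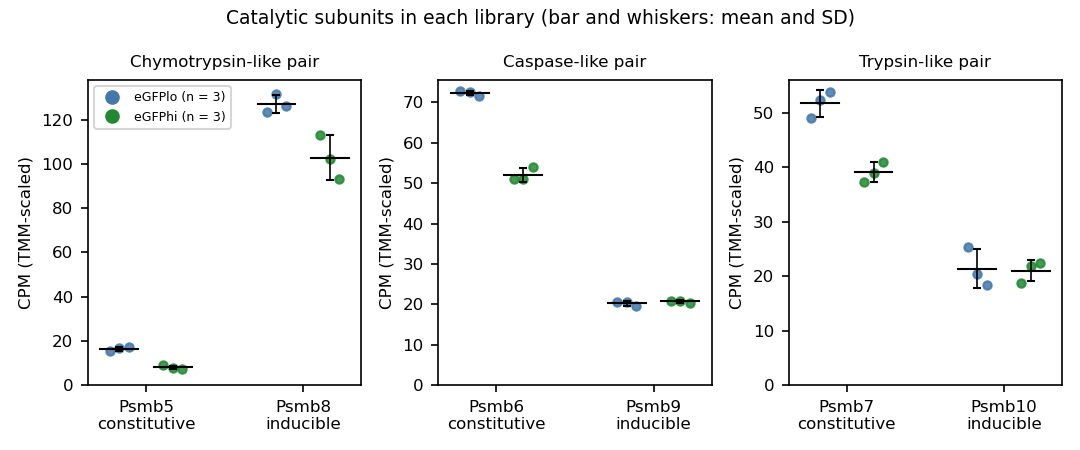
TMM-scaled CPM of the constitutive catalytic genes and their immune (inducible) counterparts in each of the 3 eGFPlo and 3 eGFPhi libraries, with horizontal bars and whiskers for the mean and SD. The groups are apart for Psmb5, Psmb6, Psmb7 and Psmb8 and overlap for Psmb9 and Psmb10.

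Within each library, the immune subunit was set against the constitutive subunit that it replaces, which removes library scaling. The Psmb8 to Psmb5 count ratio was 8.04, 7.82 and 7.41 in eGFPlo and 12.7, 13.2 and 12.6 in eGFPhi, a difference of 0.73 on the log2 scale, or 1.66-fold. The Psmb9 to Psmb6 ratio was 0.284, 0.283 and 0.273 against 0.409, 0.409 and 0.376, a difference of 0.51, or 1.42-fold. In both pairs each eGFPhi library lay above each eGFPlo library. The Psmb10 to Psmb7 ratio was 0.517, 0.390 and 0.342 against 0.502, 0.560 and 0.548, a difference of 0.39, and here the groups overlapped. A two-sided exact permutation test over the libraries gave p = 0.1 for the first pair and 0.1 for Psmb9 to Psmb6, the smallest value that 3 against 3 libraries allow, and 0.2 for Psmb10 to Psmb7 (adjusted over the 3 pairs 0.15, 0.15 and 0.2). This test therefore could not bring any pair under 0.05. The higher ratios came with lower constitutive counts, and no immune subunit gene rose.

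**Figure D4:**
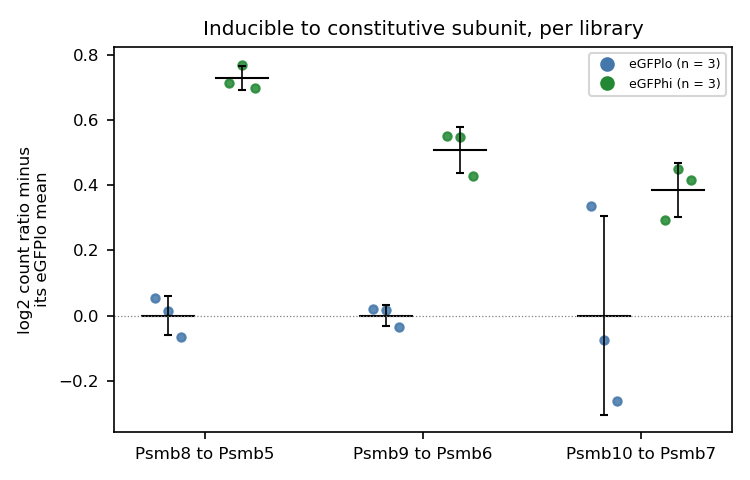
Log2 ratio of immune (inducible) to constitutive subunit counts in each library, with the eGFPlo mean of each pair set to 0 and horizontal bars and whiskers for the mean and SD of 3 libraries. For Psmb8 to Psmb5 and Psmb9 to Psmb6 the eGFPhi libraries lie above the eGFPlo libraries, and for Psmb10 to Psmb7 they overlap.

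Per length, Psmb8 stood above its constitutive partner in both groups, at 78.1 CPM per kilobase against 18.3 for Psmb5 in eGFPlo and at 63.2 against 8.91 in eGFPhi. The other immune subunits stood below theirs. Psmb9 was at 14.96 and 15.3 CPM per kilobase in eGFPlo and eGFPhi, where Psmb6 was at 90.6 and 65.2. Psmb10 was at 16.3 and 16.0, where Psmb7 was at 44.6 and 33.7.

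The PA28 activators, rings that cap the core in place of the regulatory particle, were split. Psme1 and Psme2 encode the alpha and beta subunits of the interferon-inducible cap. Psme1 stood at 106, 98.1 and 111 CPM in eGFPlo and 116, 112 and 114 CPM in eGFPhi, with a log2 fold change of 0.12 (95% interval 0.01 to 0.23, edgeR adjusted p = 0.0626). Psme2 stood at 9.08, 7.41 and 7.75 CPM against 7.39, 6.19 and 6.22 CPM, with a log2 fold change of -0.30 (95% interval -0.60 to 0.00, edgeR adjusted p = 0.0743). Neither passed the test, although in both the groups were just apart. Psme1 passed as higher without eGFPlo replicate 3 (adjusted p = 0.0211), with upper-quartile factors (0.0327), with no filter (0.0496) and with at least 5 CPM in 3 libraries (0.0377). Per length, Psme1 was at 94.3 CPM per kilobase and Psme2 at 8.40 in eGFPlo, so the subunits of the same ring differed widely in their counted reads.

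Psme3, which encodes the nuclear PA28 gamma, fell from 149, 155 and 144 CPM to 116, 116 and 111 CPM, 1.30-fold lower (log2 fold change -0.38, SE 0.04, edgeR adjusted p = 8.44e-05). Psme4, which encodes the PA200 cap, rose slightly from 106, 106 and 103 CPM to 114, 116 and 118 CPM, 1.10-fold higher (log2 fold change 0.14, SE 0.03, edgeR adjusted p = 0.00518). Psmf1, which encodes the inhibitor PI31, had a log2 fold change of 0.14 with a wide 95% interval of -0.10 to 0.38 (edgeR adjusted p = 0.270). Psme2b, a gene close in sequence to Psme2, stood at 0.685, 1.12 and 0.941 CPM against 1.87, 1.58 and 1.18 CPM, with 126 counts over the 6 libraries (log2 fold change 0.70, SE 0.27, edgeR adjusted p = 0.0491). That call was lost under DESeq2 (adjusted p = 0.236) and without any 1 library except eGFPhi replicate 3 (0.0514 to 0.131).

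Assembly chaperones help the rings and the base to form and leave before or when the particle is complete. Of the 7 chaperone genes 4 fell, 1 rose and 2 did not pass, with a median of -0.20. Among all genes tested 31.7% fell and 32.3% rose. Psmg3, part of a chaperone pair with Psmg4, stood at 7.45, 7.34 and 7.48 CPM in eGFPlo and 3.92, 4.65 and 3.90 CPM in eGFPhi, 1.77-fold lower (log2 fold change -0.82, SE 0.12, edgeR adjusted p = 6.21e-04). Its partner Psmg4 went the other way, from 17.6, 16.1 and 19.9 CPM to 21.6, 22.6 and 23.0 CPM, 1.25-fold higher (log2 fold change 0.32, SE 0.09, edgeR adjusted p = 0.0151). In both genes the groups were fully apart. The call of Psmg4 was lost at a threshold of 0.01 and against a minimum fold of 1.2 (adjusted p = 0.192). It was also lost with an assumed coefficient of variation of 0.2 between libraries (adjusted p = 0.321). Psmd10 (gankyrin), a chaperone of the base, stood at 13.0, 14.0 and 13.0 CPM against 8.46, 9.26 and 8.63 CPM, 1.51-fold lower (log2 fold change -0.60, SE 0.09, edgeR adjusted p = 7.23e-04). Psmd9 and Psmg2 fell, with log2 fold changes of -0.58 and -0.20, while Psmd5 (-0.04, 95% interval -0.20 to 0.12) and Psmg1 (-0.00, -0.20 to 0.19) did not pass. The call of Psmg2 (edgeR adjusted p = 0.0437) was lost under DESeq2 (adjusted p = 0.211) and without any 1 library except eGFPhi replicate 1 (0.0772 to 0.128).

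Psma8, which encodes an alpha subunit of the testis core particle that takes the place of Psma7, stood at 4.71, 3.98 and 5.09 CPM in eGFPlo and 8.10, 8.95 and 8.32 CPM in eGFPhi. It was 1.84-fold higher (log2 fold change 0.88, SE 0.13, edgeR adjusted p = 5.87e-04) and the only one of the 4 higher genes with a rise above 1.2-fold in a test against that minimum. Per length it remained low, at 2.72 and 4.999 CPM per kilobase, beside 100.3 and 92.9 for Psma7. Psmc3ip, outside the proteasome, fell from 24.7, 23.3 and 22.0 CPM to 11.8, 11.3 and 10.9 CPM, 2.05-fold lower (log2 fold change -1.04, SE 0.08, edgeR adjusted p = 2.36e-05). The pseudogenes did not pass the filter: Psmb6-ps2 had 0, 0 and 1 counts in eGFPlo and 3, 5 and 4 in eGFPhi, and Psmb7-ps2 had 0, 0 and 1 against 1, 7 and 1.

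The libraries of a group were close to each other (edgeR's common coefficient of biological variation was 0.0941), and this let small differences pass. When a coefficient of 0.2 was assumed instead, 9 of the 48 genes were lower and 1 was higher, where 16.5% of all genes tested were lower and 20.1% higher. The 9 were Psma1, Psma2, Psmb5, Psmc3, Psmc5, Psmd10, Psmd13, Psmd14 and Psmg3, and the gene that was higher was Psma8. At that assumed spread, the proteasome genes that were lower made up a share not far from that of all genes.

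Many proteasome genes have processed copies, and the sources used here do not say how reads shared between copies were counted. Of the 49 members searched, 15 had an annotated copy with at least 90% identity over at least 200 bp. Psma3 has a copy, Gm13835, that is identical over 665 bp, and 46.7% of the reads of Psma3 and its copies were counted on copies. With copies summed, its log2 fold change was -0.00 (edgeR adjusted p = 0.962). For Psma5, 53.8% of the reads were on copies, and with them summed the log2 fold change was -0.15 and no longer passed (edgeR adjusted p = 0.0631). The decrease of Psma5 is therefore uncertain.

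For Psmb5, 25.99% of the reads were on copies, chiefly Gm3375 with 98.9% identity. With copies summed, Psmb5 still fell, with a log2 fold change of -0.86 (edgeR adjusted p = 6.03e-05), and the Psmb8 to Psmb5 difference became 0.54. Psme2 and Psme2b are 99.4% identical over 794 bp. The rise of Psme2b was lost with copies summed (log2 fold change 0.34, edgeR adjusted p = 0.244), and Psme2 then had -0.20 (edgeR adjusted p = 0.188). Psme1, in contrast, passed with its copies (log2 fold change 0.13, edgeR adjusted p = 0.0384). Among the 33 proteasome genes without such a copy, 23 fell (69.7%) and 3 rose (9.09%), beside 31.7% and 32.3% of all genes tested.

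Exons of other genes also overlap some members, and the sources used here do not say whether counting used the strand. Psmd13 shares 342 bp with exons of Sirt3 on the opposite strand, and Sirt3 itself had a log2 fold change of -0.01 (42.1 and 41.9 CPM in eGFPlo and eGFPhi). Psmc3 shares 215 bp with Slc39a13 and Psmb7 shares 405 bp with Nek6, and both partners rose (0.62 and 0.81) while the proteasome gene fell. Psmb9 shares 212 bp with Tap1, which did not pass at 0.25. Psmd9 shares 1849 bp with Gm26745 and Psmb8 498 bp with Gm20496, also on the opposite strand. On their own strand, Psmb5 shares 109 bp with Mir686, Psmd1 301 bp with Gm21972 and Psmg3 280 bp with Gm26938. Without counted strand, reads in the opposite-strand stretches cannot be assigned to one gene, and in the same-strand stretches strand does not separate them. The values of all these members carry that limit. Among the 24 proteasome genes with neither a copy nor an exon overlap, 16 fell (66.7%) and 3 rose (12.5%), with a median of -0.26. The shares of all genes tested were 31.7% and 32.3%.

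Subunits and partners outside the naming rule were read from a list of 11 measured genes. Of these, 6 fell, 1 rose and 4 did not pass, with a median of -0.18, where 31.7% of all genes tested fell and 32.3% rose. The lid and base genes without a Psm symbol fell too: Sem1, a small lid subunit, from 140 to 89.0 CPM (log2 fold change -0.65, edgeR adjusted p = 5.34e-06), and Adrm1, the ubiquitin receptor of the base, from 57.0 to 37.9 CPM (-0.59). Adrm1 falls outside the naming choice and was named after its value was seen, as the receptor for Uchl5. Uchl5, a deubiquitinase that binds Adrm1, had the largest decrease of the list, from 66.3 to 38.5 CPM (-0.78, edgeR adjusted p = 8.76e-06). Zfand5, a factor that activates the 26S proteasome, was the gene that rose (0.21, edgeR adjusted p = 1.51e-04). This small rise was lost when the coefficient was set to 0.2 (adjusted p = 0.529) or against a minimum fold of 1.2.

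Nrf1, encoded by Nfe2l1, is the transcription factor that raises proteasome subunit genes when proteasome activity falls short. It is extracted from the endoplasmic reticulum by Vcp, deglycosylated by Ngly1 and cleaved by Ddi2, and it binds DNA with small Maf partners. Of 9 genes listed for this route, 6 rose, 2 fell and 1 did not pass, with a median of 0.20. Among all genes tested 32.3% rose and 31.7% fell. The list also holds Nfe2l2, which encodes the related factor Nrf2 and rose (0.20), and Keap1, which acts on Nrf2. Nfe2l1 stood at 48.3, 45.7 and 45.5 CPM in eGFPlo and 134, 133 and 133 CPM in eGFPhi, 2.86-fold higher (log2 fold change 1.52, SE 0.04, edgeR adjusted p = 1.18e-07). Maff stood at 31.8, 31.2 and 33.4 CPM against 68.4, 68.7 and 70.0 CPM, 2.15-fold higher (log2 fold change 1.10, edgeR adjusted p = 1.01e-06). Keap1, which holds the related factor Nrf2 in check, fell (-0.32, edgeR adjusted p = 0.00582), as did Vcp (-0.15, edgeR adjusted p = 0.00464). Neither decrease passed when the coefficient was set to 0.2 (adjusted p = 0.321 for Keap1 and 0.671 for Vcp) or against a minimum fold of 1.2. The transcript of the activator was thus higher in the same libraries in which most constitutive subunit transcripts were lower, and these counts do not measure the processed Nrf1 protein.

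**Figure D5:**
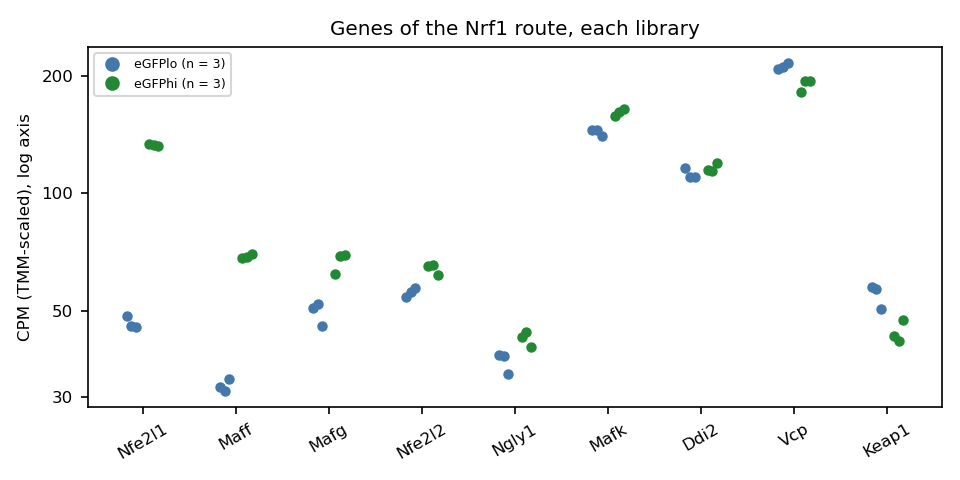
TMM-scaled CPM on a log axis of 9 genes listed for the Nrf1 route in each library, with eGFPlo in blue and eGFPhi in green. The list includes Nfe2l2 and Keap1, which belong to the related factor Nrf2. Nfe2l1 and Maff lie highest above their eGFPlo libraries, Vcp and Keap1 lie below theirs, and Ddi2 overlaps.

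Nrf1 and its Maf partners bind the antioxidant response element, and the promoters were searched for a short form of it. Windows from 250 bases before to 50 after the start, from RefSeq on GRCm38.p6, were matched for 41 of the 51 members. The letters TGACNNNGC, on either strand, were found in 4 of the 25 constitutive 26S genes with a window (16.0%) and in 0 of the 3 immune genes. They were found in 14.0% of all 27025 genes with a window. A gene with several windows was counted if any of them held the letters. The promoters of Psmb5 and Psmb6, catalytic genes that fell, hold the element close to the start. They are shown upstream of annotated exons, with the element in capitals, for Psmb5 at chr14:54618023-54618245 (minus strand) and for Psmb6 at chr11:70525107-70525356 (plus strand).
Psmb5: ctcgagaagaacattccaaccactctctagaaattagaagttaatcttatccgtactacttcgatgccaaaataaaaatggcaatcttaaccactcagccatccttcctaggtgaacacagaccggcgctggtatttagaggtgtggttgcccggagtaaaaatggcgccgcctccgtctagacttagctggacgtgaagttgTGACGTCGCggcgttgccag
Psmb6: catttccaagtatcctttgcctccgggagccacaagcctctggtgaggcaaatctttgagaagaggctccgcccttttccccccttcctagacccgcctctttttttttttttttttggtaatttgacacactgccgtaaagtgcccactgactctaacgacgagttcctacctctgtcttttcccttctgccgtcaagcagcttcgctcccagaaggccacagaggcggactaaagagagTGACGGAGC

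The same letters were found once in each of 4 other members, shown here as short sites so that the variable bases can be compared, with the element in capitals and written as its reverse complement in Psmc6, Psmd12 and Psme4. Psmc6 and Psmd12 are genes of the base and lid that fell, Psmd9 is a chaperone that fell and Psme4 is the activator that rose. The sites of Psmd9 (chr5:123228149-123228177) and Psme4 (chr11:30771758-30771786) lie downstream of the GENCODE starts of these genes (123169413 and 30771726). They thus lie inside the genes as GENCODE annotates them.
Psmc6: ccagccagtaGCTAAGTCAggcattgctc
Psmd12: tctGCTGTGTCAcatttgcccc
Psmd9: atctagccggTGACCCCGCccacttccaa
Psme4: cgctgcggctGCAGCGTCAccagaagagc

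The element thus occurred in genes of either direction, at a share near that of all genes with a window. Other letters were searched on both strands as well, and matches to different letters were allowed to share bases. CCAAT was found in 10 of the 25 constitutive genes (40.0%) and in 41.1% of all genes with a window. The interferon-type letters GAAANNGAA were found in 4 of 25 (16.0%) and in 9.8% of all genes with a window. They were found in 0 of the 3 immune genes and in 1 of the 4 PA28 genes, Psme1. The NF-kB-type letters GGNNTTTCC were found in 1 of 25 (4.0%) and in 6.6% of all genes with a window. The STAT-type letters TTCNNNGAA were found in 1 of 25 (4.0%) and in 9.6% of all genes with a window. Among the immune genes Psmb8 held them once, starting 97 bases before the RefSeq start of the window used, at chr17:34198088-34198116 (plus strand). That start differs from the GENCODE start given for Psmb8, so the site lies inside the gene as GENCODE annotates it. It is shown because Psmb8 was the immune subunit that fell.
Psmb8: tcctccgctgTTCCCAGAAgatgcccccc

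Immune subunits are induced by interferon signalling through factors such as Irf1 and Nlrc5, and act with the class I loading machinery. Of 14 genes listed for this, 6 rose, 7 fell and 1 did not pass, with a median of -0.00. Irf1 (0.42, edgeR adjusted p = 1.07e-04) and Nlrc5 (0.54, edgeR adjusted p = 6.11e-06) were among those that rose. The interferon receptor genes Ifngr1 (-0.51, edgeR adjusted p = 1.36e-04) and Ifngr2 (-0.58, edgeR adjusted p = 6.83e-04) fell. These genes were added after their values were seen. Stat2, a transcription factor of the interferon response, rose from 30.9 to 45.1 CPM (log2 fold change 0.55, edgeR adjusted p = 2.01e-04), a call lost with the assumed coefficient of 0.2 (adjusted p = 0.062). Irf8, which is also a gene of the myeloid and B cell lineages, fell from 46.6 to 9.07 CPM (-2.38, edgeR adjusted p = 2.96e-05). Calr, the chaperone calreticulin, fell by 0.69 on the log2 scale (edgeR adjusted p = 0.00137). The genes of the list thus moved in both directions, as did all genes tested, of which 32.3% rose and 31.7% fell.

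Genes that supply ubiquitin or carry ubiquitylated proteins to the proteasome moved in both directions. Of 13 tested, 3 rose, 7 fell and 3 did not pass, with a median of -0.15, where 32.3% of all genes tested rose and 31.7% fell. Nploc4, a cofactor of Vcp, had the largest decrease, from 85.3 to 55.0 CPM (-0.64, edgeR adjusted p = 5.67e-05). The shuttle Ubqln2 rose (0.23, edgeR adjusted p = 0.00209), which did not pass with the assumed coefficient of 0.2 (adjusted p = 0.501) or against a minimum fold of 1.2.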

How the data were processed

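Bulk RNA-seq was made from 6 libraries, 3 eGFPlo and 3 eGFPhi. The deposited table gives read counts per gene, treated as raw, and FPKM values that the authors scaled by gene length and library total, per the file headers. The submitters' processing notes list the tools CASAVA 1.8, HISAT2, StringTie and edgeR, with no role for any, and the builds hg38 and GRCm38. The counter and its strand setting were not given in the sources used here.

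In R 4.3.3, edgeR 4.0.16 kept 18081 genes (filterByExpr, minimum count 10, minimum total 15), applied TMM factors and a quasi-likelihood test with group as the only term, and adjusted p by Benjamini-Hochberg over all of them (threshold 0.05). Steps were tested on simulated data. Copies were found with blastn 2.17.0 in GENCODE M21 transcripts on GRCm38, and promoters came from RefSeq. Alternatives used limma 3.58.1, DESeq2 1.42.0, other factors and filters, and leaving out each library. Summing copies was added after the data were seen.

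Every member is accounted for. Values per library are given for the catalytic pairs, Psme1 and Psme2 and, in each other role group, the called genes with the 2 largest rises and falls, and others were added after their values were seen. From each pathway list the 2 largest rises and falls at 1 CPM or more are named, except for some that are not reported here. Members and lists were chosen with earlier results of these data known. Libraries with the same replicate number had residuals that did not correlate (-0.0133, 0.000555 and -0.0108), so the groups were compared unpaired. Floors cover counting error only.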

Additional observations from a re-analysis of the deposited data

How the results depend on the processing

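The spread assumed between libraries moved the counts most. With a coefficient of variation of 0.2, 6619 genes passed (11571 in the edgeR test), and 9 proteasome genes were lower (33) and 1 was higher (4). At a threshold of 0.01, 9037 genes passed, and 2 proteasome genes were higher and 29 lower. Against a minimum fold of 1.2, 8095 genes passed, and 1 proteasome gene was higher and 22 lower. Leaving out each library gave 10618 to 11427 genes, 3 to 5 proteasome genes higher and 29 to 31 lower. With DESeq2, 10768 genes passed, and 3 proteasome genes were higher and 30 lower. Apart from the assumed coefficient, calls over all genes were not split by direction at these settings. With the replicate block, 10965 genes passed, 3 proteasome genes were higher and 32 lower: Psma7, Psme2b and Psmg2 lost the call and Psmd3 gained it (adjusted p = 0.0405). Leaving out each library, the ratio difference ran from 0.70 to 0.76 for Psmb8 to Psmb5. It ran from 0.49 to 0.55 for Psmb9 to Psmb6 and from 0.26 to 0.55 for Psmb10 to Psmb7. Averaged within replicate numbers the differences were 0.73, 0.51 and 0.39. These equal the main differences by construction, so they are no check.

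Only log2 fold changes near 0 turned sign. The log2 fold change of Psmb10 was 0.013 with upper-quartile factors, 0.0046 with no filter, 0.0067 with at least 5 CPM in 3 libraries and 0.037 with limma-voom, and leaving out each library it ran from -0.11 to 0.12. The log2 fold change of Psmg1 was 0.022 with upper-quartile factors, 0.013 with no filter, 0.016 with at least 5 CPM, 0.0035 with DESeq2 and 0.012 with limma-voom, and leaving out each library it ran from -0.074 to 0.052. The log2 fold change of Psmd5 ran from -0.083 to 0.031 leaving out each library, and the log2 fold change of Psma3 was -0.0025 with copies summed. The cause was not tested.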
